A study of Mus musculus with 6 samples.

Results

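The genes Zfp600 to Zfp999 are mouse zinc finger genes that were named in a running series, and 171 of the 21853 protein-coding genes of the GRCm38 annotation carry such a symbol (Zfp followed by a number of 3 digits, from Zfp600 on). A gene is a member by its symbol alone, and no measured value enters that rule. Their promoters, taken as 1 kb on each side of the transcription start site (TSS), were compared with the peaks of acetylated histone H3 lysine 27 (H3K27ac) that the authors deposited for control cells. A promoter that shares at least 1 bp with a peak is called marked. Members were then split by chromosome and by whether the body of another member lies within 500 kb.

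H3K27ac was profiled by chromatin immunoprecipitation and sequencing (ChIP-seq) in E14 (E14Tg2A) mouse embryonic stem cells (mESCs), a male line derived from the 129 strain, here with a Cre gene at Rosa26 and a puromycin cassette linked to Oct4. The cells were grown without serum in N2B27 medium with LIF, PD0325901 and CT-99021, and the Control group received DMSO for 2 h. NVP-2 (100 nM, an inhibitor of the kinase CDK9) and actinomycin D (800 nM in the sample labels) were given for 2 h to the other groups, with 2 replicates of each group and chromatin of human HEK293T cells added as a spike-in. The only table used here is 1 list of 22973 peaks from both control replicates together, so a promoter has 1 value, no spread between replicates can be given and the treated libraries were not used.

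Most of these genes encode proteins with arrays of C2H2 zinc fingers, each a short fold held by a zinc ion that can contact DNA. Many also carry a KRAB box, a domain that recruits the corepressor Trim28 (KAP1) and with it the histone methyltransferase Setdb1, and such proteins are known in mESCs for silencing retroelements. KRAB zinc finger genes multiplied by local duplication, so near-identical copies often lie side by side. H3K27ac marks active promoters and enhancers.

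The promoters shown first differ strongly in CpG content or are near copies of each other, since marking is set beside CpG content and promoter copies in what follows. Each line gives the 200 bases upstream of the TSS in GRCm38, read along the gene, with each CpG in capitals. Zfp664 (chr5:124862491-124862690, plus strand) had the highest CpG content among isolated marked members, and Zfp616 (chr11:74069755-74069954, plus strand) the lowest among clustered unmarked members.
Zfp664: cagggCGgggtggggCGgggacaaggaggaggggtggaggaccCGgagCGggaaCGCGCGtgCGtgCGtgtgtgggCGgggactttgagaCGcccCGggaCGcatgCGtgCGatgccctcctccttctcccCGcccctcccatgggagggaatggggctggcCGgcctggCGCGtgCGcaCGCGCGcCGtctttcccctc
Zfp616: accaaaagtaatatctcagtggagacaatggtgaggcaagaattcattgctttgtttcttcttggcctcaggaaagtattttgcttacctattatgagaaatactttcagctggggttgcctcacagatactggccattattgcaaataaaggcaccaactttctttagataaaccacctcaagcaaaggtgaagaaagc
The stretch of Zfp664 holds 24 CpG and that of Zfp616 holds 0.

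Within the chain of members that forms the large cluster of chromosome 4, the most alike pair without annotated exons in these stretches, both unmarked, was Zfp600 (chr4:146156624-146156823, plus strand) and Zfp979 (chr4:147642514-147642713, minus strand). The most alike such pair with only 1 marked promoter was Zfp982 (chr4:147492217-147492416, plus strand) and Zfp989 (chr4:146971776-146971975, plus strand).
Zfp600: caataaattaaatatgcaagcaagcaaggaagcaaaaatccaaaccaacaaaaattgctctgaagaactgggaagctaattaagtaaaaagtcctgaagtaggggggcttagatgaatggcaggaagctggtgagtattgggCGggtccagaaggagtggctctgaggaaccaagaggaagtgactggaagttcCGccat
Zfp979: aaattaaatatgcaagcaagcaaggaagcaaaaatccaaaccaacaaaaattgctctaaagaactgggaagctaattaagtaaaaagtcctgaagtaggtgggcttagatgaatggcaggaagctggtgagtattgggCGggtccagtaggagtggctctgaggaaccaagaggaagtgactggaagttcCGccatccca
Zfp982: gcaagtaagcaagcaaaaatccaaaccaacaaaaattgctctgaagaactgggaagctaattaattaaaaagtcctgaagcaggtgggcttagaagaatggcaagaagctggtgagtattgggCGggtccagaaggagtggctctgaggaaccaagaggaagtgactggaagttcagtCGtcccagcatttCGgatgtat
Zfp989: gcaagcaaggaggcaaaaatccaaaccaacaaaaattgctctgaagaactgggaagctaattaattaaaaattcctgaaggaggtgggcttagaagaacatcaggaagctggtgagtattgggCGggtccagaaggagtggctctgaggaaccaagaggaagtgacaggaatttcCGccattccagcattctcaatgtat
Zfp600 and Zfp979 differ by 11 edits over these bases (94.5% identity). Zfp982 and Zfp989 differ by 18 edits (91.0% identity), and of these only Zfp989 lies under a peak.

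In control cells 124 of the 171 members had a marked promoter, which is 72.5% (95% Wilson interval 65.4 to 78.7). Of all protein-coding promoters, 48.8% were marked. Of the 194 other genes named Zfp plus a number, 164 were marked (84.5%, 78.8 to 88.9), and the difference, members minus these, was -12.0 percentage points (95% Newcombe interval -20.4 to -3.61). Among promoters of which at least 90% maps uniquely, it was -7.82 points (-16.8 to 0.692), an interval that holds 0. KRAB genes with at least 3 fingers under other kinds of names were marked in 52 of 94 cases (55.3%, 45.3 to 65.0). All intervals here cover counting error only, since neighbouring genes share a locus and are not replicates.

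**Figure D1:**
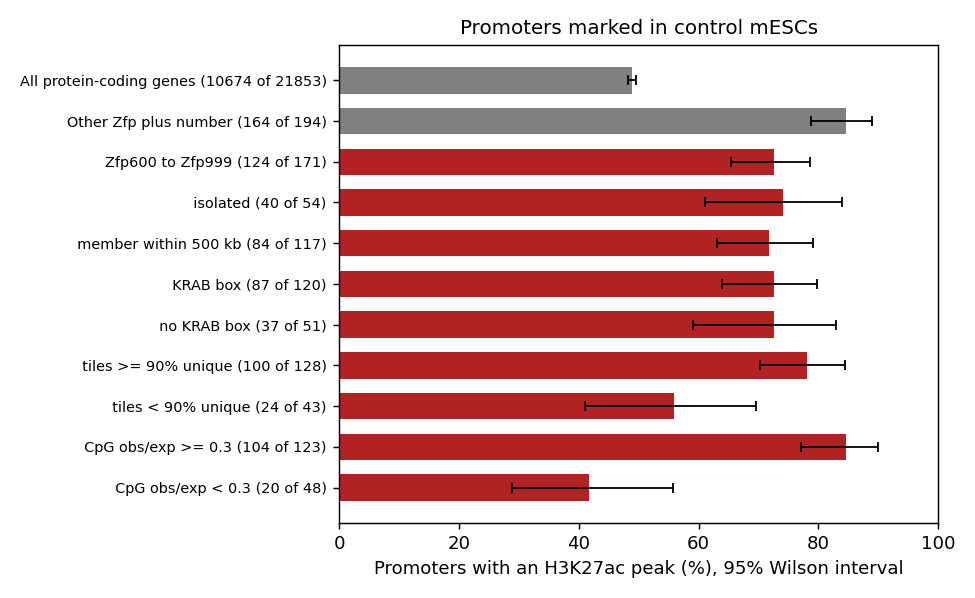
Share of promoters with an H3K27ac peak in control mESCs (x axis, %) for all protein-coding genes and the other Zfp genes (grey) and for Zfp600 to Zfp999 and groups within them (red), with 95% Wilson intervals as error bars. Isolated and clustered members have shares of 74.1% and 71.8%, and the lowest of the red bars is that of promoters with a CpG observed/expected ratio under 0.3, at 41.7%.

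The marked state was clear-cut in position. At 113 of the 124 marked promoters the TSS itself lay inside the peak (91.1%, against 90.5% of all marked protein-coding promoters). At the other 11 it lay at most 0.227 kb away. The unmarked promoters began at 2.77 kb from the nearest peak (Zfp773 on chromosome 7), followed by Zfp991 at 3.40 kb, Zfp992 at 3.47 kb and Zfp987 at 3.52 kb on chromosome 4. No member lay between those distances. The median distance of the 47 unmarked promoters to a peak was 37.8 kb, against 60.3 kb over all unmarked protein-coding promoters. Of the 47, 13 were more than 100 kb from any peak, and Zfp966 was the farthest at 754 kb. At 4 unmarked genes another annotated isoform started under a peak (Zfp708, Zfp759, Zfp800 and Zfp936).

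Of 24 genes of corepressors and their partners, a list put together by hand, 23 had a peak, beside 48.8% of all protein-coding promoters and 83.6% of those with a CpG observed/expected ratio of at least 0.6. Among the 23 were Trim28 with a peak of 32426 bp and Setdb1 with 20145 bp. Dnmt1, the maintenance DNA methyltransferase, had none at the TSS used, with the nearest peak at 6.14 kb. As a check of the cells, all 6 mESC genes of a short list (Pou5f1, Nanog, Sox2, Zfp42, Tdgf1 and Dppa5a) were marked, and 0 of 4 genes of other cell types (Gata1, Neurod1, Alb and Myod1).

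Of 28 members listed for a known role, 21 were marked, beside 72.5% of all members. The 7 others were Zfp608, Zfp618, Zfp708, Zfp711, Zfp800, Zfp831 and Zfp982. Zfp706, a small protein involved in the exit from pluripotency, had the widest peak among these members. Zfp638, which silences unintegrated retroviral DNA, had a peak of 1874 bp, and Zfp644, a partner of the G9a and GLP methyltransferases, one of 1997 bp. Zfp687, which works with Zmynd8, had a peak of 2709 bp. The ribosome assembly factor Zfp622 had 2498 bp, the splicing factor Zfp830 had 1524 bp at a promoter shared with Cct6b, and Zfp827, which binds the NuRD complex, had 5234 bp. The paralogs Zfp609 and Zfp608 differed, since Zfp609, a partner of Nipbl, had a peak of 2529 bp whereas Zfp608 lay 160 kb from one. Zfp809, the KRAB protein that recognizes the proline tRNA primer binding site of murine leukaemia viruses, had a peak of 11622 bp. Zfp750, a regulator of epidermal differentiation, was marked as well, with a peak of 1807 bp whose edge lay 0.046 kb from its TSS.

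The median width of the peaks at members was 1874 bp (95% interval 1681 to 1977, quartiles 1299 and 3039), against 2174 bp (2121 to 2224) at all marked protein-coding promoters and 1905 bp (1739 to 2097) at the other marked Zfp genes. Peaks of at least 10 kb lay at 7 members (5.65%, against 10.8% of all marked protein-coding promoters), and peaks under 1 kb at 19 (15.3% against 10.6%).

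The 5 widest belonged to Zfp706 (37521 bp), Zfp704 (24782 bp), Zfp710 (24767 bp), Zfp870 (17597 bp) and Zfp961 (15060 bp). The first 3 are isolated and without a KRAB box, while Zfp870 on chromosome 17 and Zfp961 on chromosome 8 are clustered KRAB genes. At the other end stood Zfp790 (411 bp), Zfp994 (488 bp) and Zfp764 (558 bp), whose peaks lay wholly within the promoter window. The authors merged peaks within 2 kb of each other, so a wide peak can join several.

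**Figure D2:**
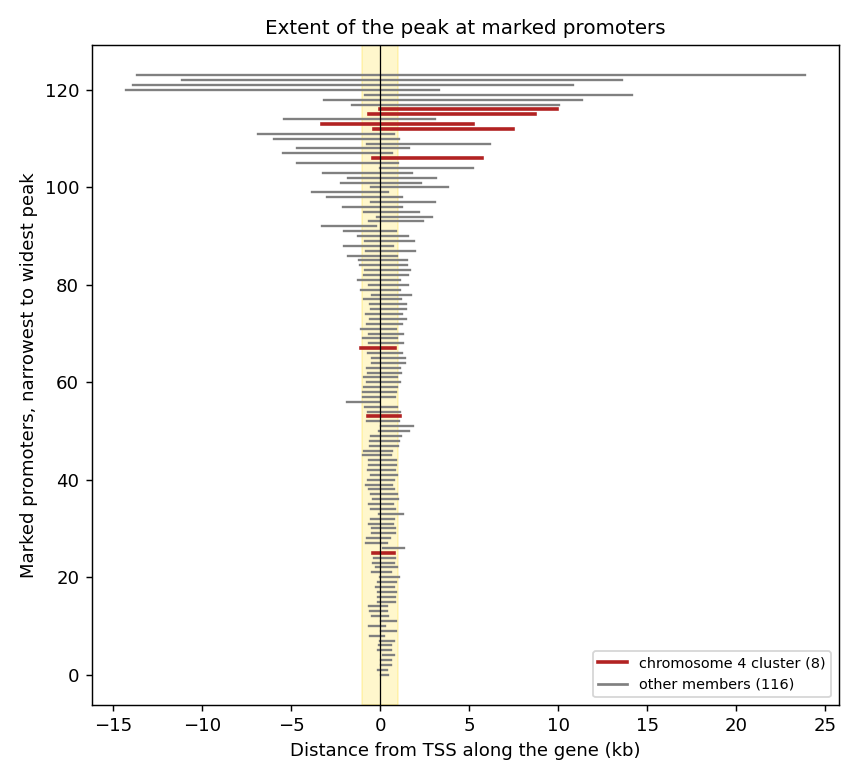
Extent of the H3K27ac peak at the 124 marked promoters, as distance from the TSS along the gene in kb (x axis), ordered from the narrowest to the widest peak (y axis). The yellow band is the promoter window, red lines are the 8 marked members of the chromosome 4 cluster and grey lines the other 116, and 5 of the red lines reach more than 5 kb downstream.

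Peaks reached further downstream than upstream of the TSS at 91 of 124 members (73.4%, against 67.6% of all marked protein-coding promoters). The median reach was 648 bp upstream and 1031 bp downstream. The 124 promoters used 119 distinct peaks, because 10 members shared a peak in pairs (Zfp934 with Zfp935, Zfp942 with Zfp943, Zfp944 with Zfp758, Zfp646 with Zfp668 and Zfp617 with Zfp882). Counting other protein-coding genes and genes of long intergenic noncoding RNA (lincRNA) too, 24 marked members (19.4%) lay under a peak that also covered another promoter. The same share was not computed for all marked promoters. Where the TSS of another gene of either kind lay within 2 kb, 22 of 24 members were marked, and where none did, 102 of 147 (91.7% and 69.4%). The corresponding shares of all protein-coding promoters were 80.1% and 43.4%.

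Having a neighbour of the same series made no difference that these counts could show. Of the 117 members with another within 500 kb, 84 were marked (71.8%, 63.0 to 79.2), and of the 54 isolated members 40 (74.1%, 61.1 to 83.9). The difference, clustered minus isolated, was -2.28 points (-15.4 to 12.7), an interval that still allows a gap of either sign. Clusters of 5 or more held 49 marked members of 66, and clusters of 2 to 4 held 35 of 51.

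The even average hid clusters of opposite kinds. Of the 25 clusters, 10 had every member marked, 3 had none and 12 were mixed. By chromosome the share ran from 21 of 22 on chromosome 17 (95.5%, 78.2 to 99.2) and 30 of 35 on chromosome 7 (85.7%, 70.6 to 93.7) down to 9 of 20 on chromosome 4 (45.0%, 25.8 to 65.8) and 5 of 15 on chromosome 2 (33.3%, 15.2 to 58.3). All protein-coding genes showed no such order, with 51.3% marked on chromosome 17, 42.4% on 7, 52.6% on 4 and 47.4% on 2. Chromosome 8 had 12 of 16, 13 had 8 of 10, 11 had 6 of 9 (2 of 9, or 22.2%, with the TSS itself in the peak), and 6 had 6 of 8. Chromosome 9 had 7 of 8, both 5 and 15 had 6 of 7, 3 had 3 of 4, and 10 had 2 of 3. Chromosomes 1, 14, 18 and X held 1 member each, all unmarked, and 12, 16 and 19 held 1 each, all marked.

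**Figure D3:**
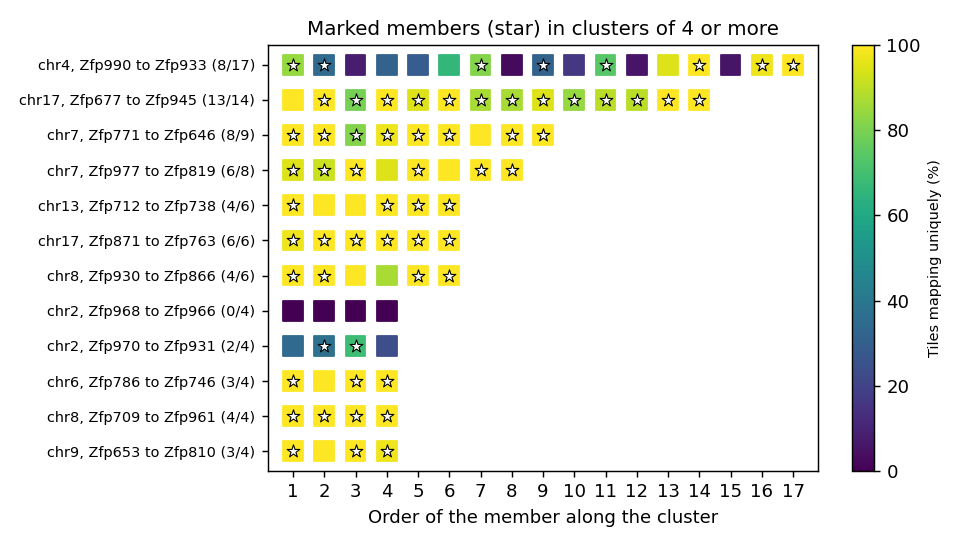
Members of the clusters of 4 or more in their order along the chromosome (x axis, rank), with 1 row per cluster, named by its chromosome and its first and last member. Colour gives the share of reference tiles of the promoter that map back uniquely (%) and a star marks promoters with a peak. Unmarked members of the chromosome 2 and 4 rows are mostly dark, with 1 at 94.7%, whereas those of the other rows are light.

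The largest cluster, with 17 members between positions 145510759 and 147848366 of chromosome 4, was mixed gene by gene. Its marked members were Zfp990, Zfp980, Zfp981, Zfp989, Zfp988, Zfp985, Zfp984 and Zfp933, and unmarked ones stood between them. Several of its peaks lay mostly downstream of the TSS. Zfp980 had 9938 bp of peak, of which 9929 bp lay downstream of the TSS, and Zfp990 had 8725 bp downstream of 9341 bp. Zfp985 had 7452 bp downstream of 7807 bp, Zfp989 had 5697 of 6098 bp, and Zfp984 had 5212 of 8474 bp. Such reach of more than 5 kb into the gene was seen at 5 of the 8 marked members here and at 8 of the 116 elsewhere, and at 13.0% of all marked protein-coding promoters. Zfp981 (1793 bp), Zfp988 (1171 bp) and Zfp933 (1889 bp) had peaks of ordinary width.

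The cluster between 21383748 and 22867134 on chromosome 17 was the reverse. It holds 14 KRAB genes, and 13 were marked: Zfp948, Zfp983, Zfp760, Zfp820, Zfp995, Zfp942, Zfp943, Zfp947, Zfp994, Zfp944, Zfp758, Zfp946 and Zfp945. Zfp677, the first of the row, was the exception, with the nearest peak at 39.1 kb. Of the 6 other KRAB zinc finger genes in the same stretch that are no members, all 6 were marked. The second cluster of that chromosome, from Zfp871 to Zfp763, had 6 of 6 marked.

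On chromosome 7 the cluster from 127244274 to 127885996 had 8 of 9 marked (Zfp771, Zfp768, Zfp747, Zfp764, Zfp688, Zfp689, Zfp668 and Zfp646, but not Zfp629). The cluster from 42579783 to 43618285 had 6 of 8 (Zfp977, Zfp976, Zfp975, Zfp715, Zfp719 and Zfp819, but neither Zfp936 nor Zfp658). Chromosomes 13 and 8 each held a cluster with 4 of 6 marked, where the unmarked were Zfp708 and Zfp759, and Zfp964 and Zfp869.

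Members on distal chromosome 2 fell at the bottom. Zfp968, Zfp965, Zfp969 and Zfp966 formed a cluster between 175372462 and 175931051 in which not only no member but no peak at all was listed, and the same held for Zfp967 and Zfp973 between 176521056 and 176681090. In the next group Zfp972 (2047 bp) and Zfp971 (1308 bp) were marked while Zfp970 and Zfp931 were not. Altogether 2 of these 10 members were marked. The third cluster without marks was Zfp735 and Zfp616 on chromosome 11, whose TSS lay 368 kb and 452 kb from a peak.

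Without the 10 clustered members of chromosome 2 and the 17 of the chromosome 4 cluster, 114 of 144 members were marked (79.2%, 71.8 to 85.0). Clustered members then stood at 74 of 90 (82.2%, 73.1 to 88.8) beside the 40 of 54 isolated ones, a difference of 8.15 points (-5.28 to 22.7).

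Both stretches are made of near copies, which touches what the peak list can show, because the authors removed reads of mapping quality under 10. To measure this, each promoter window was cut from the reference into 38 overlapping tiles of the read length that the study's methods give, and the tiles were aligned back to GRCm38. The share that returned to its own place with a mapping quality of at least 10 is called the mappable share. It was below 90% at 43 members (25.1%, against 8.93% of all protein-coding genes), of which 37 were clustered. It was 0 at 7 members, namely Zfp781 on chromosome 10 and Zfp965, Zfp966, Zfp967, Zfp968, Zfp969 and Zfp973 on chromosome 2, and none of these was marked.

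Over all members together, marking followed this share. Of the 128 members at 90% or more, 100 were marked (78.1%, 70.2 to 84.4), and of the 43 below, 24 (55.8%, 41.1 to 69.6), a difference of 22.3 points (6.44 to 38.3). Over all protein-coding genes the shares were 52.6% of 19901 and 10.8% of 1952. Under 50%, 3 of 19 were marked, namely Zfp972, Zfp980 and Zfp989, beside 19 of 1051 such protein-coding genes (1.81%). The mean mappable share was 94.6% at marked and 67.6% at unmarked members, and the interval of their difference was 14.5 to 39.5 points.

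That difference came from the chromosome 2 and 4 stretches. Their median mappable shares were 0% and 34.2%, and without their members the means differed by 1.35 points (-5.45 to 8.14). Of the members left, 17 of the 20 below 90% were marked, beside 97 of the 124 at 90% or more. In the chromosome 4 cluster 3 of the 4 members at 90% or more were marked, and the fourth, Zfp982, was unmarked at 94.7%. The chromosome 17 cluster had a median of 94.7% and a lowest value of 78.9%. Outside these stretches 27 of the 30 unmarked members had a mappable share of at least 90%, beside 97 of the 114 marked ones. Among the 27 were all 14 isolated unmarked members and Zfp735 and Zfp616, at 100%. The 3 other unmarked members were Zfp781 (0%), Zfp772 (78.9%) and Zfp869 (86.8%). How far lost reads account for the unmarked promoters of chromosomes 2 and 4 was not tested, and neither was the effect of differences between the 129 strain and the C57BL/6J reference. Among members at 90% or more, clustered ones were marked at 66 of 80 and isolated ones at 34 of 48, a difference of 11.7 points (-2.98 to 27.2).

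Close promoter copies lay mostly in the same stretches of chromosomes 2 and 4. Over the 500 bases upstream of the TSS, 21 pairs of members were at least 90% identical, which tied 20 members into 7 groups. In 16 pairs neither promoter was marked, in 3 both were and in 2 only 1 was. Of the 20 members 7 were marked (35.0%), against 117 of the other 151 (77.5%). This restates the stretches above, since 16 of the 20 lie on chromosomes 2 and 4, with 3 marked, and all 4 on other chromosomes were marked. Zfp967 and Zfp969, 100% identical, were both unmarked. Zfp987 and Zfp988 share 95.8% of their bases, and only Zfp988 was marked, with mappable shares of 31.6% and 73.7%. The other pair with 1 marked promoter, Zfp982 and Zfp989 (91.4%), ran the opposite way, with Zfp982 unmarked at 94.7% and Zfp989 marked at 31.6%. The pair of Zfp808 and Zfp934 on chromosome 13 (94.0%) had both promoters marked at mappable shares of 63.2% and 68.4%.

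The relation between copies can be read from the 20 bases shared by most members of each chromosome within those 500 bases.
Chromosome 2: aaccctaagggtggtgctca
Chromosome 4: aagaactgggaagctaatta
The first stretch occurs in all 10 clustered members of chromosome 2 and in 24 further protein-coding genes, 0.156% of all 21853 on either strand, and 7 of those 24 were marked. The second occurs in 12 members of chromosome 4, of which 6 were marked (Zfp980, Zfp981, Zfp985, Zfp988, Zfp989 and Zfp990) and 6 were not. It can be found in the printed upstream stretches of Zfp600, Zfp979, Zfp982 and Zfp989. Only 2 other protein-coding genes hold it, Rex2 and Zfp534, both unmarked.

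CpG content was higher at marked than at unmarked members. The ratio of observed to expected CpG over the promoter window had a median of 0.496 at marked and 0.297 at unmarked members, a difference of 0.199 (0.130 to 0.261). Without the chromosome 2 clusters and the chromosome 4 cluster the difference was 0.129 (0.0105 to 0.267). From a ratio of 0.3 upwards 104 of 123 members were marked (84.6%, 77.1 to 89.9), and below it 20 of 48 (41.7%, 28.8 to 55.7).

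Members of low CpG content were marked more often than protein-coding genes of low CpG content as a whole. The other Zfp genes were not split by CpG content, so whether this is particular to the series was not tested. Below 0.3, only 580 of 7554 protein-coding promoters were marked (7.68%). Among promoters that were also at least 90% mappable, the counts were 8 of 20 members (40.0%, 21.9 to 61.3) and 527 of 6066 protein-coding genes (8.69%, 8.00 to 9.42). Between 0.3 and 0.4, 84.0% of 25 members were marked, against 29.8% of 1750 protein-coding genes. From 0.6 upwards the shares came close, at 34 of 37 members (91.9%, 78.7 to 97.2) and 83.6% of protein-coding genes. Members below 0.3 included Zfp980, Zfp981, Zfp985 and Zfp990 with ratios between 0.169 and 0.189, all marked, and Zfp978 and Zfp979 of the same cluster, both at 0.171 and unmarked.

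**Figure D4:**
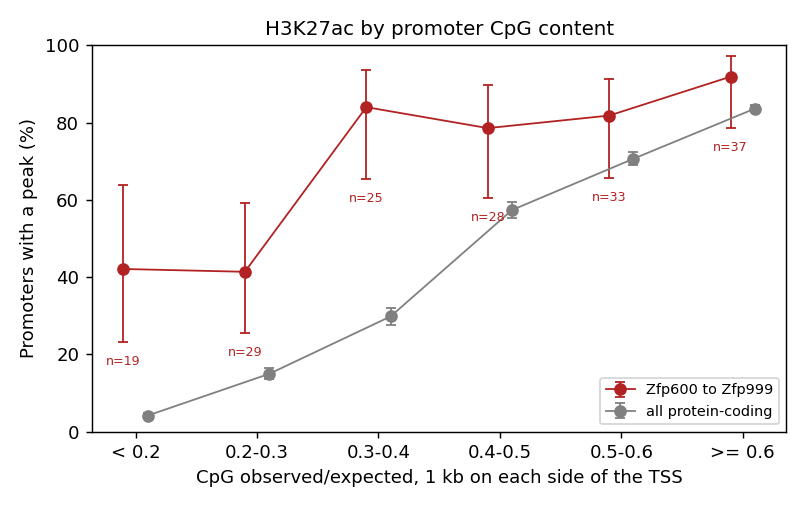
Share of promoters with an H3K27ac peak (y axis, %) by CpG observed/expected ratio of the promoter window (x axis, bins) for Zfp600 to Zfp999 (red, with the number of members) and for all protein-coding genes (grey), with 95% Wilson intervals. Below a ratio of 0.5 the members' intervals lie above those of all genes, and from 0.5 upwards the intervals overlap.

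**Figure D5:**
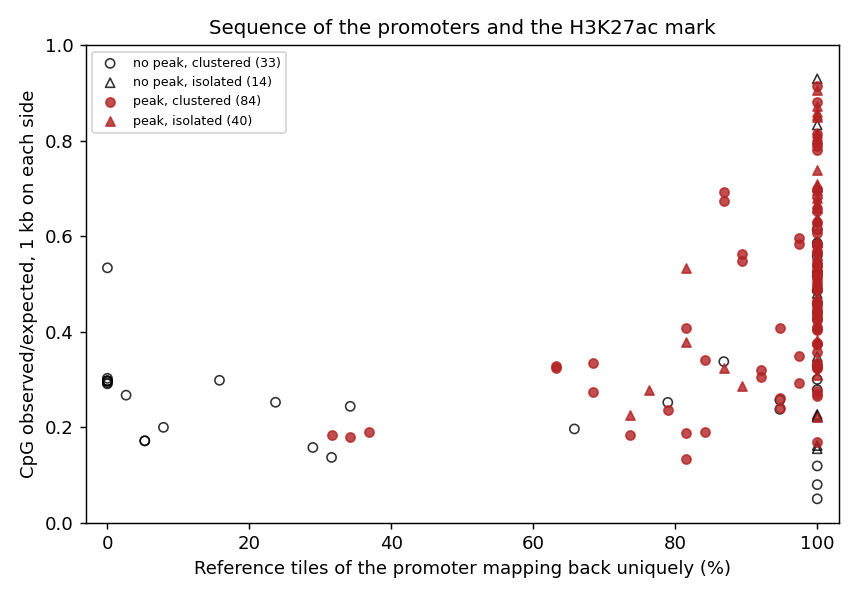
CpG observed/expected ratio (y axis) against the mappable share (x axis, %) of the 171 promoters, filled red where marked and open where not, with circles for clustered and triangles for isolated members. Open symbols fill the lower left, where both values are low, and the 14 open triangles all stand at 100%.

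Members with and without a KRAB box had the same share of marked promoters, within a wide interval. The box was found in 120 members, and 83.3% of these were clustered, against 33.3% of the 51 without one. Marked promoters numbered 87 of 120 with the box (72.5%, 63.9 to 79.7) and 37 of 51 without (72.5%, 59.1 to 82.9), a difference of -0.0490 points (-13.5 to 15.2). Within the isolated and the clustered members the values went opposite ways, with 17 of 20 against 23 of 34 among isolated members (17.4 points, -7.50 to 36.8) and 70 of 100 against 14 of 17 among clustered ones (-12.4 points, -27.3 to 12.4), and both intervals hold 0. Their promoters differed in sequence, with median CpG ratios of 0.349 (0.323 to 0.425) and 0.654 (0.553 to 0.699). All members without the box were 100% mappable. By the number of C2H2 fingers in the protein, 13 of 23 members with 1 to 5 fingers were marked, 41 of 53 with 6 to 10, 43 of 58 with 11 to 15 22 of 30 with 16 or more and 5 of 7 in which the finger pattern was not found, with intervals that overlap.

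The 14 isolated unmarked members were Zfp608, Zfp618, Zfp641, Zfp648, Zfp663, Zfp683, Zfp697, Zfp711, Zfp791, Zfp800, Zfp831, Zfp853, Zfp879 and Zfp957. Of these, 11 lack a KRAB box. Zfp683 (Hobit), a factor of tissue-resident lymphocytes, lay 14.5 kb from a peak at a CpG ratio of 0.155. Zfp711, the member on X and known from X-linked intellectual disability, lay 572 kb away at a ratio of 0.833. Zfp618, a partner of Uhrf2, had the highest ratio of all members, 0.930, and yet lay 296 kb from a peak. Low CpG content thus accompanied some of these promoters and not others, with a median ratio of 0.442 (range 0.155 to 0.930) against 0.611 at the 40 isolated marked members. Zfp800 was unmarked only at the TSS used, since 4 of its 5 isoforms start under a peak.

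Short motifs were counted over 250 bases before to 50 bases after the TSS on both strands, as letters and not as bound sites. The box CCAAT was found at 97 members (56.7%, 49.2 to 63.9), against 38.7% of all protein-coding promoters and 37.1% (30.6 to 44.1) of the other Zfp genes. It was held by 65.8% of KRAB members and 35.3% of those without the box, and by 55.6% of marked and 59.6% of unmarked members. The TATA box, TATAAA, was found at 4 members (2.34%, 0.913 to 5.86), all of them marked, against 12.4% of all promoters. Of marked promoters alone, 3.23% of members (1.26 to 8.00) and 6.43% of all genes held it. The ETS motif CCGGAAG was found at 20.5% of members (15.1 to 27.1), against 11.2% of all promoters, 19.4% of the marked ones and 24.7% of the other Zfp genes. For the GC box, GGGCGG, the shares were 40.4% of members, 45.0% of all promoters and 42.3% of the other Zfp genes, but 66.3% of all marked ones against 42.7% (34.4 to 51.5) of marked members. The E-box CACGTG was found at 9.36% of members and 7.74% of all promoters. The CRE motif TGACGTCA was found at 1 member (0.585%, 0.103 to 3.24), against 2.46% of all promoters and 6.70% (3.96 to 11.1) of the other Zfp genes. Exact matches to longer motifs were rarer, at 2.34% of members and 1.23% of all promoters for YY1, 2.92% and 1.20% for NRF1, and 1.75% and 0.389% for the ZNF143 element. Of the other Zfp genes, 2.58% held the YY1 motif and 4.64% each of the NRF1 and ZNF143 motifs. No motif of this set contains another.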

How the data were processed

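H3K27ac ChIP-seq of control mESCs was taken as deposited. Per the methods, the authors trimmed reads with Cutadapt, mapped them to mouse (mm10) plus human sequence with bwa meme, and discarded duplicates (Picard 2.9.1) and alignments of mapping quality under 10 (samtools 1.4). Peaks came from LanceOtron. They merged those within 2 kb and dropped weak peaks (under 8 rpm) and those away from ATAC-seq summits. The deposited peak list used here gives positions in bp, with no height, count or score, pooled over both replicates, so the read depth behind each peak cannot be read from it.

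The gene family and the lists were chosen with earlier results of these data known, though the symbol rule uses none of them. Named were the widest, narrowest and nearest cases, the members of the 4 largest clusters, isolated unmarked members and members of known role. Genes named for a shared peak, a shared stretch, a promoter copy, a low mappable share, a cluster without marks, another marked isoform, or as the unmarked members of a cluster of 6 were chosen after their values were seen.

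Peaks were compared with GENCODE M21 (GRCm38, an earlier release than the study's) at the TSS of the isoform of longest genomic span. KRAB boxes were sought in proteins translated from GENCODE, since no RefSeq protein table was used, by matching 20 or more of 41 residues of a consensus derived from the boxes themselves. Clusters were chains of members within 500 kb. Tiles started every 50 bases and were aligned with BWA 0.7.19. The alignment used the mouse genome alone. Shares have 95% Wilson, differences Newcombe and medians distribution-free intervals. No p-value was computed, since there is 1 list and genes are not replicates. The functions were tested on simulated data. Python 3.11.15, numpy 2.4.6, pandas 2.3.3 and pysam 0.24.0 were used.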

Additional observations from a re-analysis of the deposited data

How the results depend on the processing

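The share of marked members was the same 124 of 171 with a window of 500 bp or 2 kb on each side. These windows could not change it, since no member lay between 0.227 and 2.77 kb from a peak. The share stayed within the interval given when the TSS itself had to lie in a peak, for other isoforms and for an overlap of 500 bp. The same held for members without another TSS within 2 kb and members at least 90% mappable (66.1% to 78.1% over these settings). The share was 61.4% when only peaks at least 1 kb wide counted, which removes the 19 members with narrower peaks. Without the chromosome 2 clusters and the chromosome 4 cluster, an alternative added after the data were seen, the share was 79.2%, the CpG difference 0.129 and the difference in mappable share 1.35 points. The difference between clustered and isolated members ran from -7.69 to 11.7 points over its 15 alternatives, and each interval held 0; its sign therefore depended on the setting. The KRAB difference ran from -1.91 to 10.3 points in the same way. Of 44 values by chromosome 2 moved, both named here: chromosome 11 fell to 22.2% with the TSS itself in the peak, and chromosome 13 rose to 100% with any isoform. No paired analysis was possible because both control replicates were pooled into 1 list, and no replicate could be left out. The list holds only peaks above the authors' thresholds, so weak signal and none cannot be told apart.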
